A study of Mus musculus with 12 samples.

Results

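The oncofetal and imprinted growth genes described here are 9 genes best known for their expression in the fetus, most of which the liver shuts down after birth and liver cancers often express again. They were chosen by name, with earlier results of these data known. They are the rows Afp, Gpc3, Mdk, Igf2, H19, Dlk1, Meg3, Peg3 and Igf2bp3 among the 24421 genes of the deposited count table. All 9 had enough counts to be tested. RNA was sequenced from liver tissue without tumour of male mice aged 4 months, of the strains LiK and LiKM. Feeding was either normal or, starting at 5 weeks of age, with 0.06% ACR added to the diet, which made 4 groups of 3 mice each (LiK normal diet, LiK ACR, LiKM normal diet and LiKM ACR). By general knowledge of the study, since the labels are silent on it, the hepatocytes of LiKM mice are meant to be without Mdm2, a ligase that marks p53 for degradation, while those of LiK mice keep it, and ACR stands for an acyclic retinoid under study for the prevention of liver cancer. Which promoter drives recombination in these strains is not stated in the labels. The replicates are separate mice according to their titles.

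Alpha-fetoprotein (Afp) is the main plasma protein of the fetus and the classical serum marker of hepatocellular carcinoma, and glypican-3 (Gpc3) and midkine (Mdk) are a cell surface proteoglycan and a secreted heparin-binding growth factor of the same fetal programme. Igf2, H19, Dlk1, Meg3 and Peg3 are imprinted, which means that mainly the copy from a given parent is transcribed. Igf2 and H19 lie side by side and are read from the paternal and the maternal chromosome respectively, as are Dlk1 and Meg3 in another cluster. Igf2bp3 is a fetal RNA-binding protein that binds Igf2 mRNA.

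The libraries held 10124813 to 18647156 counts, and values are given in CPM, counts relative to the size of a library after scaling with TMM factors, which correct for differences in composition between libraries. The tissue label fits the markers in so far as none of 12 hepatocyte genes was at 0 in any group, and their summed level was 99060 to 181900 CPM per library. Mdm2 had 21.6 to 25.8 CPM in the 6 LiK libraries and 29.0 to 67.2 CPM in the 6 LiKM libraries, and since its reads were counted over the whole gene they cannot show whether exons were deleted. Summed levels of 14 cholangiocyte and progenitor markers differed between the strains, with 54.4 to 213 CPM in LiK and 370 to 1120 CPM in LiKM libraries. In bulk tissue, fewer cells of a type and less RNA per cell cannot be told apart. In circadian clock genes, replicate 3 of LiKM normal diet and replicates 2 and 3 of LiKM ACR stand apart from the rest of LiKM, so values of the 9 genes that change their call or move by over 1.5 times without them are given both ways. LiK ACR also lay apart from LiK normal diet in Dbp (136 to 139 against 25.6 to 35.9 CPM), Nr1d1 (136 to 181 against 16.1 to 27.2) and Arntl (0.721 to 1.73 against 5.77 to 6.53). Nr1d2 and Per1 were also higher, and Clock, Per2, Cry1 and Nfil3 lower, in every LiK ACR library than in every LiK normal diet library. Npas2, Per3, Cry2, Tef and Hlf overlapped. By edgeR 0 of 14 clock genes passed between the diets in LiK, beside 0.195% of all tested genes. The part of clock differences in the diet and strain differences was not tested.

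Of the 9 genes, 7 were higher in every LiKM library than in every LiK library, whichever the diet. These were Afp, Gpc3, Mdk, Igf2, H19, Dlk1 and Meg3, and among all tested genes 7.1% showed that order. Peg3 and Igf2bp3 overlapped between the strains. The separation was narrow for Igf2, whose lowest LiKM library had 0.720 CPM against 0.712 in the highest LiK library, and for H19, with 24.3 against 18.96 CPM. It was wide for Mdk, with 1.06 against 0.361 CPM, and for Gpc3, with 6.78 against 2.31 CPM.

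**Figure D1:**
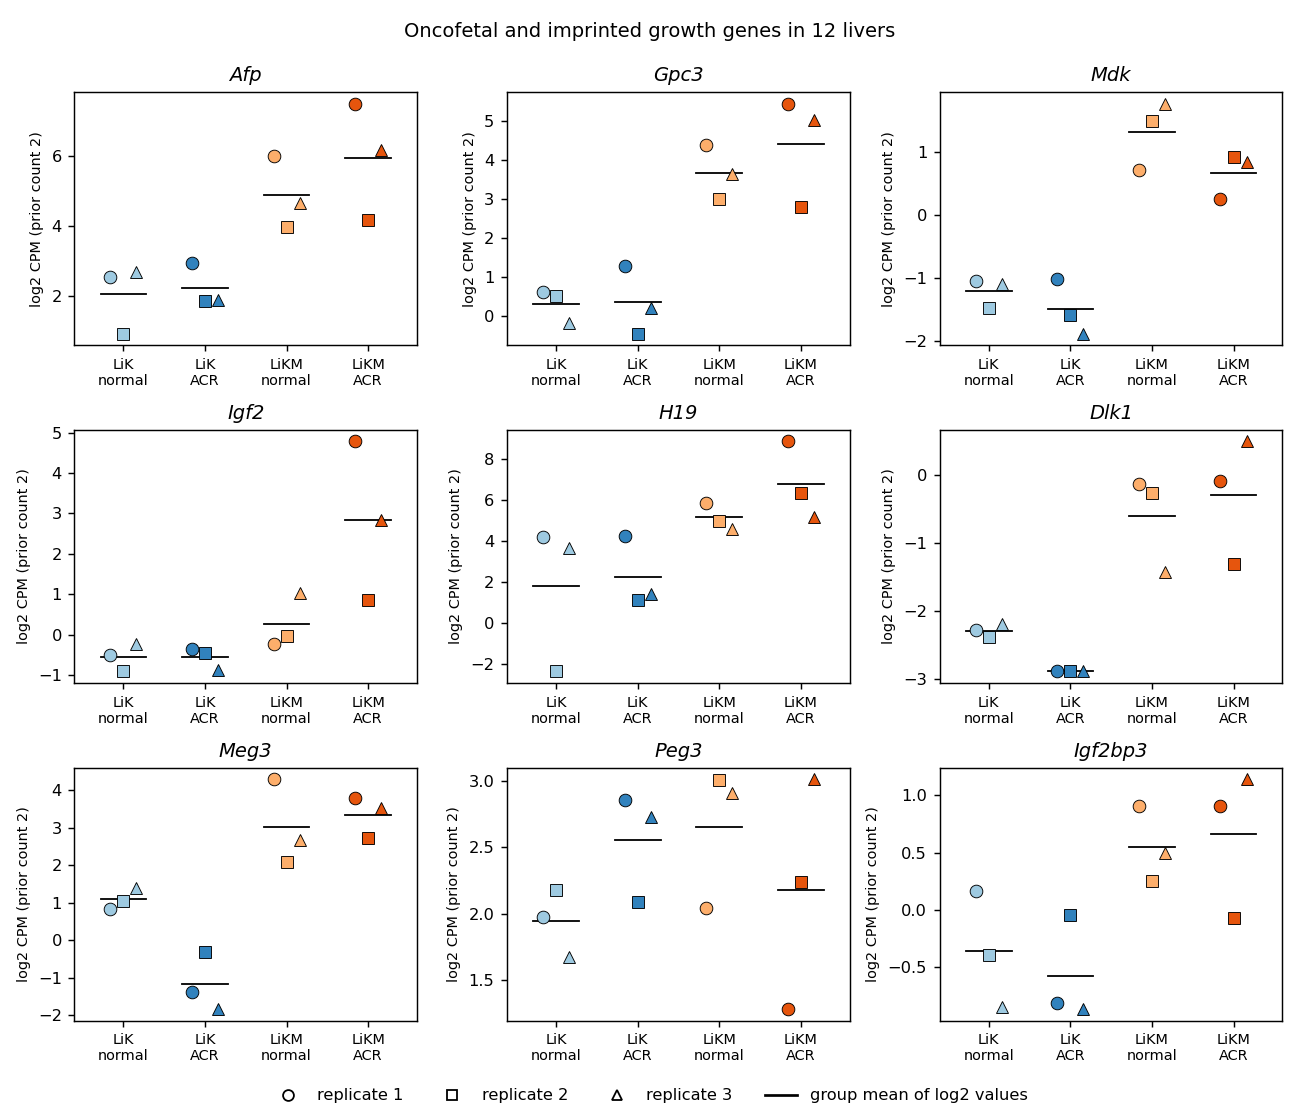
Log2 CPM (prior count 2) of the 9 genes in 12 livers, with a panel for each gene, the 4 groups on the x axis, a point for each mouse and a bar at the group mean of the log2 values. All 6 LiKM points lie above all 6 LiK points for 7 genes, and for 4 genes LiKM ACR 1 is the highest library.

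Under normal diet, LiKM livers had higher levels than LiK livers of 5 of the 9 genes (Afp, Gpc3, Mdk, Dlk1 and Meg3), and of none a lower level. The threshold was an adjusted p of 0.05 in the quasi-likelihood test of edgeR, with Benjamini-Hochberg adjustment over all genes, which called 13.2% of 13880 tested genes higher and 8.61% lower in LiKM. Under ACR 6 of the 9 genes passed in the same direction, the same 5 and Igf2, against 5.55% of all genes called higher and 4.24% lower. Every LiKM library lay above every LiK library of the same diet for all members but Peg3 under normal diet and for all but Peg3 and Igf2bp3 under ACR, an order that 20.7% and 17.2% of all genes showed. Leaving out the 3 LiKM libraries with other clock gene levels leaves LiKM ACR 1 alone in its group. That library was the highest of all for Afp, Gpc3, Igf2 and H19. The ACR differences then moved by over 1.5 times for Afp (log2 5.21), Gpc3 (5.04), Igf2 (5.61), H19 (5.91) and Peg3 (-1.36). With a single LiKM ACR mouse, a call under ACR in this setting borrows its spread from the other groups. The calls under normal diet held, and that of Mdk under ACR was lost. The median log2 fold change of the 9 genes was 2.32 under normal diet and 4.40 under ACR, beside 0.02 over all tested genes on either diet. Under ACR, 3 of 14 clock genes rose and 2 fell between the strains, while none changed under normal diet.

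**Figure D2:**
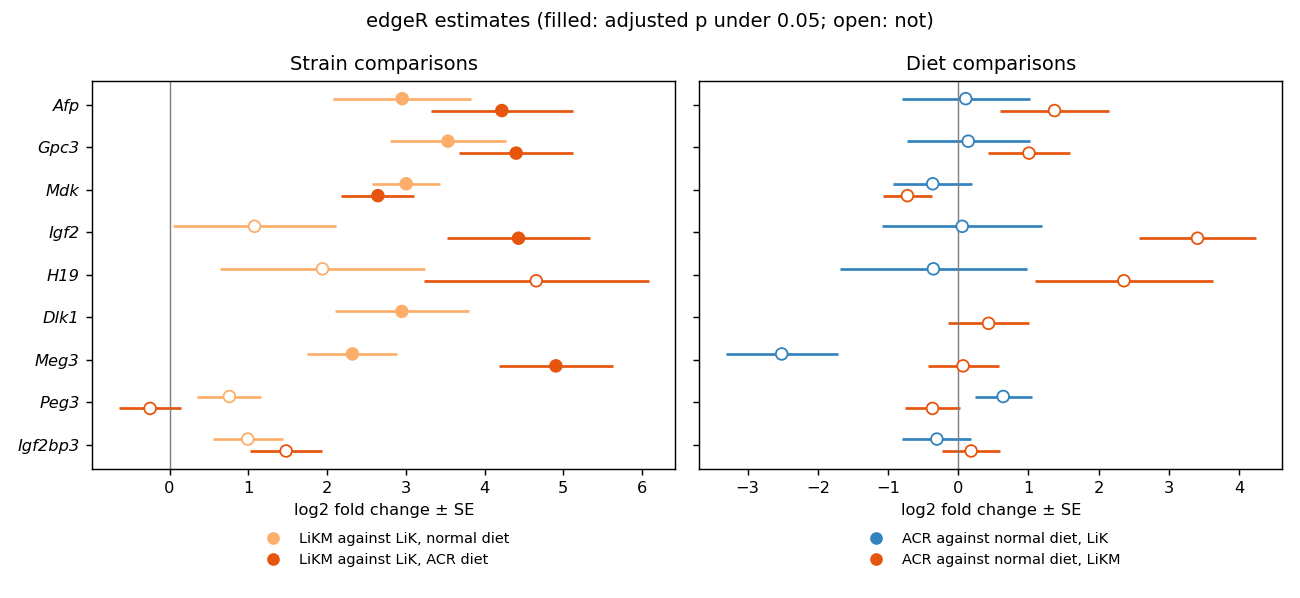
Log2 fold changes from edgeR with their standard errors for the 9 genes, on the left for LiKM against LiK on each diet and on the right for ACR against the normal diet in each strain. Filled points have an adjusted p under 0.05 and open points do not, and Dlk1 has no point where it would be set against LiK ACR, whose libraries held 0 counts of it. All filled points are strain differences above 0.

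Afp lies on chromosome 5 (mm10, 90490737 to 90508907, plus strand, protein coding), next to Alb and the other genes of the albumin family. Its RefSeq promoter window, 250 bases before to 50 after the start (GRCm38.p6, chr5:90490464-90490763, plus strand), is shown because the silencing of this promoter after birth is the model case of a fetal liver gene. Capitals mark TATAAA, the TATA box, and GTTAAT, a motif found in promoters of liver genes.
Afp: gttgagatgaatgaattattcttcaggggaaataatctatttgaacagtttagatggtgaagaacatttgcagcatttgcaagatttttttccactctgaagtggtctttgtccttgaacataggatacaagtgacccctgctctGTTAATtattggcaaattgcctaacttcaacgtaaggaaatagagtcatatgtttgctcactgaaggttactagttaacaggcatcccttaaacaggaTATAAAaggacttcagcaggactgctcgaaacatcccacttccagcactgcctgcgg
Relative to this RefSeq start, the most upstream of the gene and upstream of the gene start given above, TATAAA begins at position -7 and GTTAAT at position -105. Counting both strands, 13.6% of 32851 mouse promoter windows of this length hold TATAAA and 7.1% hold GTTAAT.

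Afp had 5.71, 1.75 and 6.28 CPM in LiK mice under normal diet (replicates 1, 2 and 3) and 7.50, 3.46 and 3.57 CPM under ACR. LiKM mice reached 63.2, 15.6 and 25.2 CPM under normal diet and 180, 17.9 and 71.6 CPM under ACR. The groups of the strains did not overlap on either diet, while within LiKM the level differed 11.6-fold between the highest and the lowest mouse, a spread larger than that of 99.1% of genes with at least 1 CPM. Under normal diet Afp rose 7.75-fold from LiK to LiKM (4.58 ± 2.46 to 34.7 ± 25.2 CPM, mean ± SD, n = 3; log2 fold change 2.95, SE 0.88, edgeR adjusted p = 0.0382). Under ACR it rose 18.6-fold (4.84 ± 2.30 to 89.9 ± 82.7 CPM; log2 4.22, SE 0.90, edgeR adjusted p = 0.0212). For Afp under normal diet the call was lost without LiK normal diet 1, 2 or 3 (edgeR adjusted p = 0.0897, 0.112 and 0.0783), on omission of LiKM normal diet 1 (log2 2.18, 0.121) or 3 (0.0658), without LiK ACR 2 (0.0519), LiK ACR 3 (0.0522) or LiKM ACR 3 (0.0536), with the prefix of the mouse identifier as a covariate (log2 2.64, 0.111) and with no filter on low counts (0.0741), in a range of 0.00371 to 0.121 over 20 alternatives. Over the libraries left out in turn, the normal diet difference was 2.18 to 3.30 on the log2 scale. The ACR call was lost without LiK ACR 1, 2 or 3 at differences of 4.67, 4.02 and 4.03 (edgeR adjusted p = 0.0553, 0.0913 and 0.068; range over 20 alternatives 4.3e-05 to 0.0913), and without LiKM ACR 1 the difference was smaller (log2 3.21, edgeR adjusted p = 0.0431).

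None of the other 3 genes of the albumin family that were tested changed between the strains. Alb, the main plasma protein of the adult, had a log2 fold change of -0.66 under normal diet (edgeR adjusted p = 0.0526) and of -0.13 under ACR (edgeR adjusted p = 0.746). Of 14 transcription factors known to act on Afp, 2 rose and 0 fell under normal diet, near the 13.2% of all genes called higher, and 0 rose and 2 fell under ACR, where 4.24% of all genes were called lower. Their median log2 fold changes were -0.31 and -0.14. Among those that rose was Trp53 (log2 0.54, edgeR adjusted p = 0.0425). Those that fell were Cebpa (log2 -1.05, edgeR adjusted p = 0.0186), which supports Afp transcription in hepatocytes, and Onecut2 (log2 -0.87, edgeR adjusted p = 0.0239). Zhx2, a repressor of Afp, H19 and Gpc3 in the adult mouse liver, did not pass, with log2 fold changes of -0.28 (edgeR adjusted p = 0.2) and 0.35 (0.154) on the normal and ACR diets. Zbtb20, which silences Afp after birth, did not pass either, with -0.71 (edgeR adjusted p = 0.201) and 0.16 (0.83).

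Gpc3 lies on the X chromosome (mm10, 52272426 to 52613950, minus strand, protein coding). Its promoter window (RefSeq, GRCm38.p6, chrX:52613925-52614224, minus strand) is shown beside that of Afp because Gpc3 had the pattern nearest to that of Afp across the 12 livers. Capitals mark CCGCCC, the reverse complement of the GC box GGGCGG.
Gpc3: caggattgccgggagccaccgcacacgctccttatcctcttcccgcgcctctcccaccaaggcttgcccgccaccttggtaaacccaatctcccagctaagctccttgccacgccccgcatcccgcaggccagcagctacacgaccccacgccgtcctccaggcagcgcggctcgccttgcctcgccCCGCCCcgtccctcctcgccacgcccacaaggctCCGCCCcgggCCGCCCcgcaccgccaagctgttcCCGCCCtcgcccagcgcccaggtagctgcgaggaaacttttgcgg
This window holds 4 GC boxes and neither TATAAA nor GTTAAT, whereas the Afp window holds no GC box. G and C make up 70.7% of the Gpc3 window and 40.0% of the Afp window, beside a median of 52.7% over all windows, and 35.7% of windows hold a GC box.

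Gpc3 had 1.41, 1.30 and 0.754 CPM in LiK mice under normal diet and 2.31, 0.599 and 1.03 CPM under ACR. In LiKM livers, Gpc3 stood at 20.8, 7.82 and 12.3 CPM under normal diet and 43.3, 6.78 and 32.5 CPM under ACR. As for Afp, replicate 2 was the lowest LiKM mouse on each diet and replicate 1 the highest. Gpc3 rose 11.6-fold under normal diet (1.15 ± 0.351 to 13.7 ± 6.60 CPM, n = 3; log2 3.53, SE 0.73, edgeR adjusted p = 0.00838) and 21.1-fold under ACR (1.31 ± 0.889 to 27.5 ± 18.8 CPM; log2 4.40, SE 0.73, edgeR adjusted p = 0.00821). Both calls held under all 20 alternatives. Without LiK ACR 1 the ACR difference of Gpc3 was larger (log2 5.07, edgeR adjusted p = 0.0215; range over 20 alternatives 3.54e-10 to 0.0431). Of 10 other tested genes for cell surface heparan sulphate proteoglycans and the enzymes that trim them, Gpc2 rose (log2 2.42, edgeR adjusted p = 0.0188) and Sdc2, a syndecan, fell under normal diet (log2 -0.53, edgeR adjusted p = 0.0151), and none changed under ACR. These counts are near the 13.2% and 8.61% of all genes called higher and lower under normal diet.

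Mdk lies on chromosome 2 (mm10, 91929805 to 91932297, minus strand, protein coding) and was low. Within LiKM its level differed 3.08-fold between the highest and the lowest mouse, a spread larger than that of 90.5% of genes with at least 1 CPM. It had 5, 4 and 4 counts in LiK mice under normal diet and 5, 3 and 2 under ACR. LiKM libraries held 25, 38 and 41 counts under normal diet and 17, 26 and 27 under ACR. Mdk rose 8.02-fold under normal diet (0.305 ± 0.0682 to 2.48 ± 0.897 CPM, n = 3; log2 3.00, SE 0.43, edgeR adjusted p = 0.00109) and 6.25-fold under ACR (0.233 ± 0.115 to 1.49 ± 0.378 CPM; log2 2.65, SE 0.46, edgeR adjusted p = 0.00836). Under normal diet the call held under all 20 alternatives. The ACR call was lost only without the 3 LiKM libraries with other clock gene levels (log2 2.15), which leaves LiKM ACR 1 alone in its group. Over the libraries left out in turn, the ACR difference of Mdk had an edgeR adjusted p of 0.00579 to 0.0447.

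Among 10 tested genes for the receptors of midkine and related surface proteins, the integrin genes Itga6 and Itga4 rose on both diets, beside 13.2% and 5.55% of all genes called higher under normal diet and ACR. Itga6 had log2 fold changes of 2.15 under normal diet (edgeR adjusted p = 0.000613) and 1.20 under ACR (edgeR adjusted p = 0.0201). Itga4 had 1.35 (edgeR adjusted p = 0.00103) and 0.96 (edgeR adjusted p = 0.0114). Pleiotrophin (Ptn), the homologue of midkine, was too low to be tested, with totals over 3 libraries of 1 count in LiK under normal diet, 0 in LiK under ACR, 20 in LiKM under normal diet and 17 in LiKM under ACR.

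Igf2 and H19 lie within the distal imprinted cluster of chromosome 7 (mm10, Igf2 142650766 to 142666816, protein coding; H19 142575529 to 142578143, a long non-coding RNA; both on the minus strand). Igf2 encodes the main growth factor of fetal life, and H19 is the host RNA of the microRNA miR-675. The mature arms (RefSeq, GRCm38.p6, minus strand; 5p chr7:142577112-142577133 and 3p chr7:142577078-142577099) are shown since their hairpin lies inside H19 and has a row of its own in the table. Capitals mark the seed, bases 2 to 8, which is not shared by the arms.
mmu-miR-675-5p: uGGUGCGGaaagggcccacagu
mmu-miR-675-3p: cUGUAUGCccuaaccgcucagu

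Igf2 was close to 0 in LiK mice, with 0.564, 0.396 and 0.712 CPM under normal diet and 0.649, 0.599 and 0.412 CPM under ACR. LiKM mice had 0.720, 0.845 and 1.91 CPM under normal diet. Under ACR the LiKM mice had 27.5, 1.66 and 7.07 CPM, or 441.5, 24.5 and 116 counts. LiKM ACR 1 and 3 thus stood far above the 10 other libraries, and the 38.1-fold range within LiKM was larger than that of 99.9% of genes with at least 1 CPM. For Igf2 the strains did not differ past the threshold under normal diet (0.557 ± 0.158 and 1.16 ± 0.653 CPM, n = 3; log2 1.08, SE 1.04, edgeR adjusted p = 0.493). Under ACR Igf2 was 21.6-fold higher in LiKM (0.553 ± 0.125 and 12.1 ± 13.6 CPM; log2 4.43, SE 0.91, edgeR adjusted p = 0.0166). That call was lost without LiK ACR 1, 2 or 3 at differences of 4.55, 4.49 and 4.25 (edgeR adjusted p = 0.0589, 0.0725 and 0.0555; range over 20 alternatives 9.71e-07 to 0.0725), and without LiKM ACR 1 the difference was 2.96 on the log2 scale (edgeR adjusted p = 0.0177).

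H19 had 17.9, 0.0566 and 12.3 CPM in LiK mice under normal diet and 18.96, 2.00 and 2.47 CPM under ACR. The LiKM levels of H19 were 58.6, 31.3 and 24.3 CPM under normal diet and 469, 81.9 and 36.3 CPM under ACR. LiK normal diet 2 held 1 count of H19 where the other LiK mice on that diet held 254.5 and 146.5, and LiKM ACR 1 held 7540.5 counts. Although the strains did not overlap, H19 did not pass under normal diet (10.1 ± 9.13 and 38.1 ± 18.2 CPM, n = 3; log2 1.94, SE 1.30, edgeR adjusted p = 0.314) or under ACR (7.81 ± 9.66 and 196 ± 238 CPM; log2 4.66, SE 1.43, edgeR adjusted p = 0.0673). Under ACR it passed in 3 of 20 alternatives, with DESeq2 (adjusted p = 0.0132), with the replicate block over all libraries (edgeR adjusted p = 0.0374) and without LiK normal diet 2 (edgeR adjusted p = 0.0431), in a range up to 0.199. The size of the H19 difference rested on single libraries. Under ACR it was 2.93 on the log2 scale without LiKM ACR 1 and 6.45 without LiK ACR 1, and 5.91 without the 3 LiKM libraries with other clock gene levels. Under normal diet it was 1.33 with LiK normal diet 2 left out, 2.70 on omission of LiK normal diet 1, and 0.64 with the prefix of the mouse identifier as a covariate. The row of the miR-675 hairpin, Mir675, had totals over 3 libraries of 19 counts in LiK under normal diet, 17 in LiK under ACR, 85.5 in LiKM under normal diet and 491 in LiKM under ACR. These reads come from a poly(A) library and overlap H19, so they do not measure the mature arms.

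**Figure D3:**
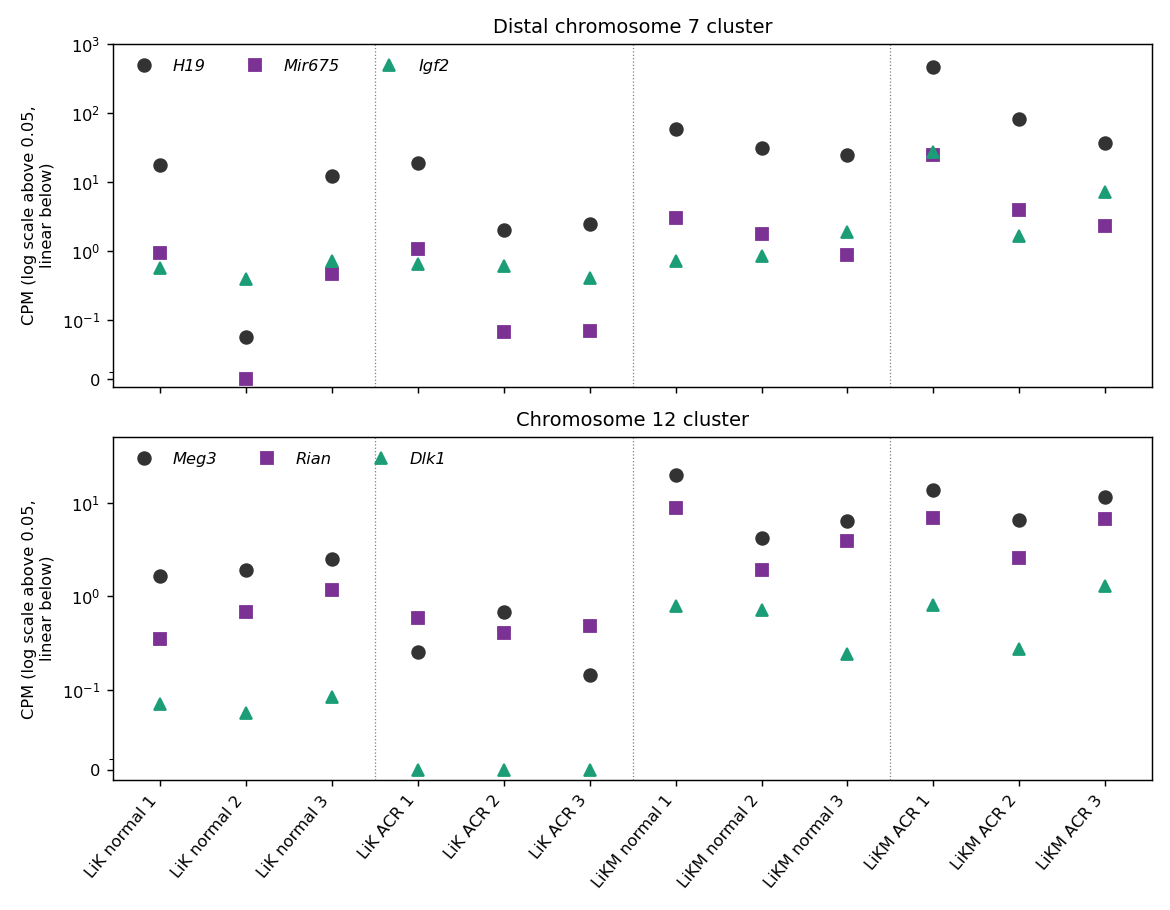
CPM of H19, Mir675 and Igf2 on chromosome 7 (top) and of Meg3, Rian and Dlk1 on chromosome 12 (bottom) in each of the 12 libraries, on an axis that is logarithmic above 0.05 CPM and linear below. H19 reaches 469 and Igf2 27.5 CPM in LiKM ACR 1, and Dlk1 is at 0 in the 3 LiK ACR libraries.

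The RNA-binding protein gene Igf2bp3 (mm10, chromosome 6, 49085223 to 49214957, minus strand) was low throughout. It had 0.986, 0.622 and 0.419 CPM in LiK mice under normal diet and 0.433, 0.832 and 0.412 CPM under ACR. LiKM livers showed 1.74, 1.06 and 1.27 CPM under normal diet and 1.74, 0.814 and 2.07 CPM under ACR. The groups did not overlap under normal diet and overlapped through LiKM ACR 2 under ACR. The difference did not pass under normal diet (0.676 ± 0.287 and 1.36 ± 0.349 CPM, n = 3; log2 0.99, SE 0.45, edgeR adjusted p = 0.133), where with library size alone as scaling it did (log2 1.38, edgeR adjusted p = 0.0369). It did not pass under ACR (0.559 ± 0.237 and 1.54 ± 0.653 CPM; log2 1.48, SE 0.45, edgeR adjusted p = 0.0589), where it did in 3 of 20 alternatives, with the replicate number as a block within LiKM (log2 1.40, edgeR adjusted p = 0.0398), with DESeq2 (log2 1.49, adjusted p = 0.0355) and without LiKM ACR 2 (edgeR adjusted p = 0.0413), in a range up to 0.166.

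The other fetal RNA-binding proteins were absent or did not pass. Igf2bp1 had 2 counts over the 3 LiKM libraries under normal diet and 0 in the other groups, and Lin28b, which blocks maturation of let-7 microRNAs, had totals of at most 0.85 counts per group. Igf2bp2 had log2 fold changes of -0.12 under normal diet (edgeR adjusted p = 0.862) and 0.92 under ACR (edgeR adjusted p = 0.139). Of 12 tested genes for IGF2 receptors, binding proteins and adaptors, 2 rose and 2 fell under normal diet (median log2 -0.03) and 1 rose and 1 fell under ACR (median -0.17), beside 13.2% and 8.61% of all genes called higher and lower under normal diet and 5.55% and 4.24% under ACR. Igf1r, the receptor that carries the growth signal of IGF2, rose under normal diet (log2 1.84, edgeR adjusted p = 0.00125) and did not pass under ACR (log2 0.46, edgeR adjusted p = 0.292). Insr, the insulin receptor, fell under normal diet (log2 -0.46, edgeR adjusted p = 0.0123) and under ACR (log2 -0.63, edgeR adjusted p = 0.00735). Igfbp1, a secreted binding protein made by hepatocytes, rose on both (log2 1.76, edgeR adjusted p = 0.0239, and 2.04, 0.0252). Igf2r, the imprinted receptor that clears IGF2, did not pass, with -0.25 (edgeR adjusted p = 0.176) and -0.35 (0.0915).

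Dlk1 and Meg3 lie in the imprinted cluster of chromosome 12 (mm10, Dlk1 109452823 to 109463336, protein coding; Meg3 109541001 to 109571726, a long non-coding RNA; both on the plus strand). Dlk1 encodes a surface protein of hepatoblasts with epidermal growth factor-like repeats. It was barely detected in LiK mice, with 1 count in each library under normal diet and 0 in each under ACR. In the LiKM libraries there were 13, 10 and 3 counts under normal diet and 13, 4 and 21 under ACR, so that all 6 lay above all LiK libraries at levels of 0.239 CPM or more. Under normal diet Dlk1 rose 7.72-fold (0.0703 ± 0.0136 to 0.574 ± 0.293 CPM, n = 3; log2 2.95, SE 0.85, edgeR adjusted p = 0.034). Under ACR, with 38 counts in LiKM and 0 in LiK, it was at least 11.7-fold higher when the LiK group is set to a floor of 3 counts over its libraries (edgeR adjusted p = 0.0126). The normal diet call for Dlk1 was lost without LiK normal diet 1, 2 or 3 at differences of 2.96, 2.80 and 3.06 (edgeR adjusted p = 0.0959, 0.0948 and 0.0821), on omission of LiKM normal diet 1 or 2 (0.0905 and 0.0756) and with the replicate block over all libraries (0.0513), within a range of 0.0141 to 0.0959 over 20 alternatives, and the ACR call held under all 20.

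The Meg3 promoter window (RefSeq, GRCm38.p6, chr12:109540746-109541045, plus strand) is shown because Meg3 had, of the 9, the largest fold difference between the diets in LiK that can be computed. Capitals mark a pair of overlapping matches to TATAAA and its reverse complement TTTATA, which begin at positions -25 and -29 relative to the start.
Meg3: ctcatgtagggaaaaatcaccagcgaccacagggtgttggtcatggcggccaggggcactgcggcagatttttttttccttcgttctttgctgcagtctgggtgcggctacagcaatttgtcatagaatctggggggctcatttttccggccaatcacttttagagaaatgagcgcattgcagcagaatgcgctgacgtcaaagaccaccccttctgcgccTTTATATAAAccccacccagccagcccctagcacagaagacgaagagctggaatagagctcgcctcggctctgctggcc
No GTTAAT and no GC box lies in this window.

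Meg3 had 1.65, 1.91 and 2.49 CPM in LiK mice under normal diet and 0.251, 0.669 and 0.144 CPM under ACR. LiKM mice had 19.5, 4.14 and 6.29 CPM under normal diet and 13.7, 6.54 and 11.3 CPM under ACR. The LiK ACR group was the lowest and overlapped with no other group. Meg3 rose 5.00-fold from LiK to LiKM under normal diet (2.02 ± 0.434 to 9.98 ± 8.33 CPM, n = 3; log2 2.32, SE 0.57, edgeR adjusted p = 0.0164) and 29.9-fold under ACR (0.355 ± 0.278 to 10.5 ± 3.67 CPM; log2 4.90, SE 0.72, edgeR adjusted p = 0.00509). Under normal diet the difference of Meg3 in the absence of LiKM normal diet 1 was 1.37 (edgeR adjusted p = 0.0445), without LiK normal diet 1 the call was lost (2.19, 0.0645; range over 20 alternatives 0.000441 to 0.0645), and without LiK ACR 2 the ACR difference was 5.84 (0.0214). Its values were not whole numbers in 11 of 12 libraries, as arises when reads are shared among genes, so the level of Meg3 is uncertain. Rian, the next long non-coding RNA of the cluster, also rose under normal diet (log2 2.75, SE 0.61, edgeR adjusted p = 0.00948) and under ACR (log2 3.45, SE 0.64, edgeR adjusted p = 0.0104). Rtl1, the paternally expressed neighbour, had 0 counts in all libraries.

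Peg3 (mm10, chromosome 7, 6703892 to 6730431, minus strand) encodes a paternally expressed zinc finger protein and was the member in which the strains overlapped on both diets. It had 3.80, 4.39 and 3.06 CPM in LiK mice under normal diet and 7.10, 4.13 and 6.48 CPM under ACR. The LiKM values of Peg3 were 3.99, 7.89 and 7.36 CPM under normal diet and 2.30, 4.58 and 7.93 CPM under ACR. LiKM ACR 1, the library with the highest Afp, Gpc3, Igf2 and H19, had the lowest Peg3 of all 12. Peg3 values were not whole in 7 of 12 libraries, so its level is uncertain too. The strain difference was 0.76 on the log2 scale under normal diet (3.75 ± 0.667 and 6.41 ± 2.12 CPM, n = 3; SE 0.41, edgeR adjusted p = 0.201) and -0.25 under ACR (5.90 ± 1.57 and 4.94 ± 2.83 CPM; SE 0.40, edgeR adjusted p = 0.731), and neither passed. Without the 3 LiKM libraries with other clock gene levels, which leaves LiKM ACR 1 alone in its group, the ACR difference of Peg3 was -1.36. Over the libraries left out in turn it ran from -0.77 to 0.094.

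Most of the imprinted genes outside the 9 that were tested did not pass. Of 38 other imprinted genes 24 had enough counts to be tested, of which 8 rose and 2 fell in LiKM under normal diet and 4 rose and 1 fell under ACR. Among all tested genes 13.2% were called higher and 8.61% lower under normal diet, and 5.55% and 4.24% under ACR. Their median log2 fold changes were 0.11 and 0.30. Airn, the antisense RNA of the Igf2r locus, rose under normal diet (log2 2.19, edgeR adjusted p = 0.00299), as did Tspan32 (log2 2.79, edgeR adjusted p = 0.0055) and Plagl1, a zinc finger gene that acts on other imprinted genes (log2 1.91, edgeR adjusted p = 0.00719). Plagl1 did not pass under ACR (log2 0.88, edgeR adjusted p = 0.171). Under ACR the smallest p-values belonged to Slc38a4, an amino acid transporter, which fell (log2 -1.29, edgeR adjusted p = 0.0034), and to Rian and Blcap, which rose (Blcap log2 0.59, edgeR adjusted p = 0.0284). Cdkn1c, the growth-restraining cell cycle inhibitor of the chromosome 7 cluster, did not pass, with -0.18 (edgeR adjusted p = 0.855) and 0.28 (0.777).

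Levels can be compared between genes per kilobase of exon. By group means, H19 was the highest of the 9, Afp the next and Gpc3 the third in all 4 groups, and Dlk1 was the lowest in all 4. In LiK the libraries of H19 spanned 0.023 to 7.29 CPM per kb under normal diet and 0.812 to 7.71 under ACR. Those of Afp lay within these ranges, at 0.521 to 1.865 and 1.03 to 2.23. In LiKM mice under normal diet the mean levels were 15.5 CPM per kb for H19, 10.3 for Afp, 5.08 for Gpc3 and 1.87 for Mdk, followed by 0.552 for Meg3, 0.481 for Peg3, 0.202 for Igf2, 0.166 for Igf2bp3 and 0.102 for Dlk1. The libraries of H19 and Afp overlapped there (9.86 to 23.8 and 4.62 to 18.8 CPM per kb), as did those of Afp and Gpc3 (2.91 to 7.74), while Mdk (1.13 to 2.46) overlapped with neither Gpc3 nor Meg3 (0.229 to 1.08). In LiKM mice under ACR, Igf2 followed Gpc3, with 2.11 ± 2.38 CPM per kb.

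Between the diets none of the 9 genes passed the test in either strain. In LiK 0.195% of all tested genes passed between ACR and the normal diet, and 0 of the 9, while 1953 of all genes had an unadjusted p under 0.05. With the replicate number as a block within LiKM, which changes the shared estimate of the spread, 701 genes passed in place of 27, and with DESeq2 397 did. Meg3 was 5.71-fold lower under ACR in LiK, with no overlap between the groups (log2 -2.51, SE 0.80, edgeR adjusted p = 0.205), and it passed with that block (edgeR adjusted p = 0.0204) and with DESeq2 (adjusted p = 0.0112). Dlk1 was also lower in all 3 ACR libraries, but at 0 counts against 1 in each library. Among all genes 14.6% had every ACR library below every normal diet library. Most of the listed clock genes also separated the diets in LiK, and their part in these differences was not tested. The other 7 genes overlapped between the diets in LiK, with log2 fold changes from -0.36 (Mdk) to 0.64 (Peg3).

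In LiKM the diet comparison called 0% of all genes and 0 of the 9 by edgeR, with 1005 genes at an unadjusted p under 0.05, while DESeq2 called 79 genes and the fit with the replicate number as a block within LiKM called 9. Igf2 had the largest difference, 10.6-fold higher under ACR (log2 3.41, SE 0.83, edgeR adjusted p = 0.287), with an overlap between 1.91 CPM in LiKM normal diet 3 and 1.66 CPM in LiKM ACR 2. It passed with DESeq2 (adjusted p = 0.00255). Without the 3 LiKM libraries with other clock gene levels it was 5.14 on the log2 scale. That setting leaves LiKM ACR 1 alone in its group, and any test in it assumes that this library varies like the others. Without LiKM ACR 1 the difference of Igf2 was 1.94 on the log2 scale (edgeR adjusted p = 0.388), the smallest of a range of 1.94 to 3.95 over the libraries left out in turn. H19 was 5.13-fold (edgeR adjusted p = 0.787), Afp 2.59-fold (0.808) and Gpc3 2.01-fold higher (0.817), and Mdk 1.65-fold lower (0.73), and none of them passed. These differences too were smallest without LiKM ACR 1, at 0.63 on the log2 scale for H19, 0.37 for Afp and 0.52 for Gpc3, in ranges up to 2.87, 2.16 and 1.47. Without the 3 LiKM libraries with other clock gene levels they were 3.40 for H19, 2.21 for Afp and 1.61 for Gpc3, and Peg3 had -1.34 in place of -0.37, none of which passed. All 9 genes overlapped between the diets in LiKM.

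The difference of the diet effects between the strains was tested as an interaction. By edgeR 1 gene of all tested passed, or 0.0072%, and 0 of the 9, with 1593 genes at an unadjusted p under 0.05. With the block within LiKM 260 genes passed, among them Meg3 (log2 2.80, edgeR adjusted p = 0.046), whose difference without the block was 2.58 (SE 0.95, edgeR adjusted p = 0.354). Igf2 had 3.35 (SE 1.44, edgeR adjusted p = 0.416). Without the 3 LiKM libraries with other clock gene levels, LiKM ACR 1 is alone in its group, and 5 interactions moved by over 1.5 times. They were those of Igf2 (5.08 in place of 3.35), Afp (2.09 in place of 1.26), Gpc3 (1.47 in place of 0.87), H19 (3.75 in place of 2.71) and Peg3 (-1.98 in place of -1.01). Without LiKM ACR 1 the interaction of Igf2 was 1.88 (edgeR adjusted p = 0.527). With all 12 libraries and no block, a strain difference that was larger under ACR than under normal diet was thus not called for any of the 9.

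Other oncofetal and liver tumour markers moved between the strains as well. They were listed, like the genes of the other lists, with earlier results of these data known. Among all tested genes 13.2% were called higher under normal diet and 5.55% under ACR. Of 14 such markers tested, 10 rose and 0 fell under normal diet (median log2 3.67) and 7 rose and 0 fell under ACR (median 2.24). They included Cd24a (log2 5.01, edgeR adjusted p = 9.88e-05, and 2.29, 0.00821), Prom1 (3.90, 0.0002, and 3.07, 0.0033) and Epcam (4.61, 0.000319, and 2.22, 0.0166), surface proteins that cholangiocytes and liver progenitors also carry, and Tspan8 (5.01, 0.00102, and 3.28, 0.0127). The cholangiocyte and progenitor list shares genes with this list, and 13 of its 13 tested genes rose under normal diet and 12 of 13 under ACR. Its summed level was 56.8 to 71.8 CPM in LiK under normal diet, 54.4 to 213 in LiK under ACR, 673 to 1120 in LiKM under normal diet and 370 to 577 in LiKM under ACR.

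These markers moved with the strain as the oncofetal genes did, and their part in the differences was not tested. The marker sum is mostly Spp1, so the order of libraries by it is mainly that of this gene. Within LiKM the marker sum had its lowest value, 370 CPM, in LiKM ACR 1, the library with the highest Afp, Gpc3, Igf2 and H19 and the lowest Mdk. LiK ACR 1, with a marker sum of 213 CPM, was the highest LiK library for Afp, Gpc3 and H19. Summed T and NK cell markers also differed between the strains, with 5.71 to 8.17 CPM in LiK and 8.23 to 21.4 CPM in LiKM. Of 8 tested, 7 rose and 1, Cd4, fell under normal diet, and 3 rose and 0 fell under ACR. Stellate and fibroblast markers overlapped between the strains in their sum, with 231 to 557 CPM in LiK and 366 to 768 CPM in LiKM, and of 12 tested 4 rose under normal diet, among them Pdgfrb, Dcn and Des (median log2 0.77), and 1, Lum, under ACR (median 0.92). Of 10 macrophage markers 2 rose under normal diet and 1 under ACR, and of 10 endothelial markers 2 and 0, with none of either list lower. Among all tested genes 13.2% were called higher under normal diet and 5.55% under ACR. The part of these cell types in the differences was not tested either. Hepatocyte markers had 134100 to 181900 CPM in LiK, 99060 to 113800 in LiKM under normal diet and 137200 to 175000 in LiKM under ACR, sums that are mostly Alb. Of 12 tested, 3 fell under normal diet (Ass1, Serpina1a and Ttr) and 0 rose (median log2 -0.61), where 8.61% of all genes were called lower. Under ACR 0 rose and 0 fell (median -0.13). Of 10 cell cycle markers, 0 passed under normal diet and 1, Top2a, rose under ACR.

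**Figure D4:**
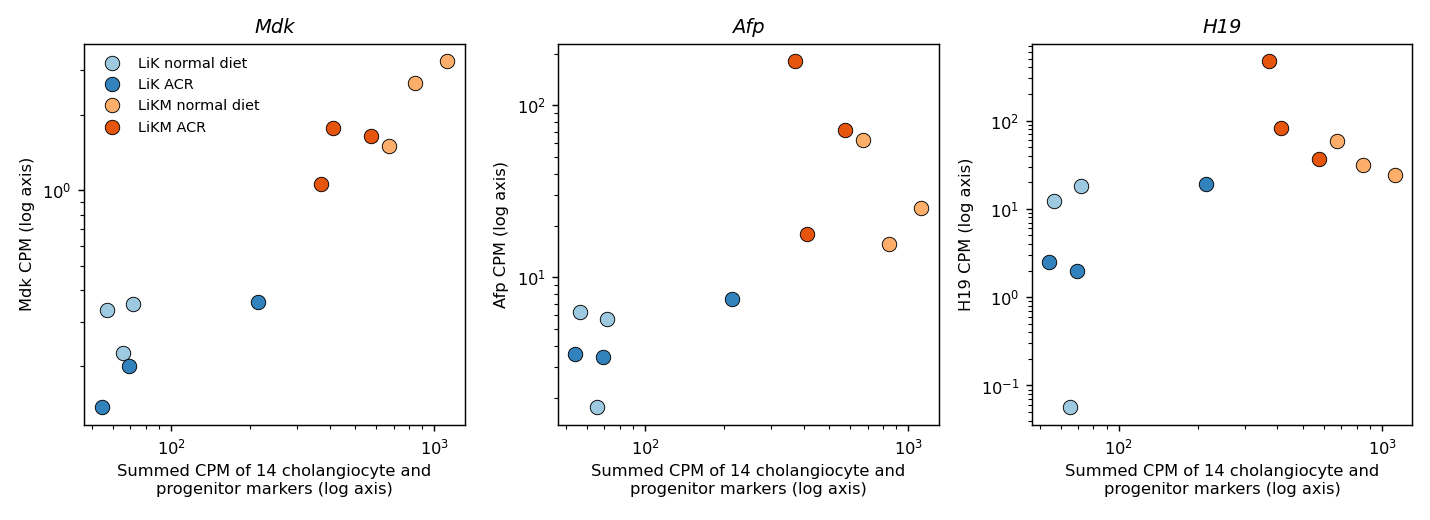
CPM of Mdk, Afp and H19 against the summed CPM of 14 cholangiocyte and progenitor markers in each of the 12 libraries, on log axes, with a colour for each group. The 6 LiKM libraries lie to the right of all LiK libraries, and LiKM ACR 1, with the highest Afp and H19, is the leftmost of them at 370 CPM. Most of the summed CPM comes from Spp1.

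Genes with the most similar pattern over the 12 libraries were found by the root mean square difference of log2 CPM after each gene's own mean was subtracted, among 11950 genes. The nearest to Afp was Gpc3, another of the 9, at 0.632, followed by Tmem54 (0.653) and Igdcc4 (0.726), where the variation of Afp itself had a root mean square of 1.92. Nearest to Gpc3 were Igdcc4 (0.508), Cdh17 (0.519) and Arhgap22 (0.604), and nearest to Mdk was the biliary transcription factor gene Sox9 (0.335), followed by Casp12 (0.361) and Cd200 (0.37). Nearest to H19 were Mir675 (1.03), which shares its reads, and Afp (1.44), against its own 2.77. Nearest to Meg3 were Rian (0.844) and Cdkn1a (0.862), the gene of the cyclin-dependent kinase inhibitor p21, and nearest to Dlk1 was Slc1a4 (0.392). Nearest to Igf2 was Tmem54 (1.02), to Peg3 Zfp799 (0.252) and to Igf2bp3 Plscr1 (0.33). These are descriptions over 12 libraries of 2 strains, so genes that differ between the strains by like amounts come out as near to each other.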

How the data were processed

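Expected counts were deposited as a table of gene symbols by 12 libraries (3 mice in each of 4 groups), made from total RNA with a stranded mRNA kit, per the labels' protocols. Per the submitters' processing notes, featureCounts 2.0.0 and the build mm10 were used. The aligner, the annotation and the settings for strand and shared reads are not stated in these sources, so overlapping genes such as H19 and Mir675 are not separated with certainty. Of values above 0, 18.9% are not whole (tolerance 1e-09). All columns matched a label.

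Expected counts were rounded to whole numbers and filtered by group with filterByExpr of edgeR; 13880 of 24421 genes remained, all 9 members among them. TMM factors were 0.830 to 1.24. Tests used edgeR 4.0.16 (glmQLFit robust, glmQLFTest), fitted to the 12 libraries together with a coefficient for each group, in 5 comparisons, with Benjamini-Hochberg adjustment over all genes and a threshold of 0.05 (common biological coefficient of variation 0.203). The standard error is the log2 fold change divided by the square root of the F statistic. Plotted log2 CPM have a prior count of 2. The script was tested on simulated data. Libraries of a group differed by more than sampling noise (chi-square over its degrees of freedom 15.4 to 67.8), so none was counted as a duplicate. Floors cover counting error only.

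Same-numbered LiKM mice on the 2 diets deviated together from their group means (r = 0.37, 0.22 and 0.48, against at most 0.074 for other numbers), so a block within LiKM was fitted as an alternative. In LiK the values were 0.024, -0.052 and -0.073. What mice of the same number share is not in the labels. Alternatives were DESeq2 1.42.0 size factors, library size alone, no filter, the DESeq2 test, the replicate block, the prefix of the mouse identifier as a covariate, and libraries left out. The prefix was MP in LiK normal diet 2 and 3 and in LiKM ACR 3, and KM in the other libraries. Prefix and group are thus partly confounded, most for LiK normal diet, and what the prefix stands for is not in the labels.

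The members and the gene lists were chosen with earlier results of these data known. All members are named, and from each list up to 3 genes of smallest p past the threshold and a fixed few; a gene that this rule picks is not reported here. Genes most alike in pattern were taken from tested genes of at least 1 CPM, leaving out predicted genes. Positions are from GENCODE M21 and promoter and microRNA sequences from RefSeq (GRCm38.p6), which matched 7 members.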

Additional observations from a re-analysis of the deposited data

How the results depend on the processing

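Across 20 alternatives for each of the 9 genes and 5 comparisons, strain differences on the normal diet kept direction and side of the threshold in 162 of 180 cases, on ACR in 166, diet differences in LiK in 164 and in LiKM in 170, and the interaction in 177. Scaled by library size alone, 4831 genes were called between the strains on the normal diet (97.6% of them higher, against 60.6%) in place of 3031, and 77.9% in place of 56.7% were higher on ACR. The median log2 of all genes was then 0.405 and 0.137, 0.133 and -0.159 for diet in LiK and LiKM and -0.293 for the interaction, a shift that the fold changes of the 9 genes in this scaling include. The pairing within LiKM rests on the data and not on a label. With the block within LiKM, 2473 genes passed between strains on ACR, 701 for diet in LiK, 9 in LiKM and 260 for the interaction, with 1 member for diet in LiK and 1 for the interaction. With the block over all libraries the interaction called 2 genes, H19 passed between the strains on ACR (log2 4.66, edgeR adjusted p = 0.0374), and 36 genes passed for diet in LiK. The blocks changed no other calls of the 9 than those given.

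DESeq2 called 2150 genes between strains on ACR, 397 for diet in LiK, 79 in LiKM and 160 for the interaction, with 1 member for diet in each strain. Without the 3 LiKM libraries with other clock gene levels the counts were 555, 624, 1 and 15, with 1 member for diet in LiKM and 1 for the interaction. With the identifier prefix 16 genes passed for diet in LiK and 0 for the interaction, which called 16 with library size alone and 2 with no filter. Reversed values, all of differences that did not pass, were for diet in LiK -0.21 (Afp) and -0.45 (Igf2) with the prefix and -0.023 (Gpc3) with the block over all libraries, and for diet in LiKM -0.035 (Dlk1) and -0.023 (Meg3) with the prefix and -0.069 (Meg3) with library size alone.

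Leaving out each library in turn gave 1658 to 3384 genes between strains on the normal diet and 2 to 5 members, 312 to 1695 genes and 4 to 7 members on ACR, 0 to 108 genes for diet in LiK, 0 to 5 in LiKM and 0 to 20 for the interaction. Ranges that crossed 0 were, for diet in LiK, -0.35 to 0.40 (Afp), -0.53 to 0.50 (Gpc3), -2.15 to 0.41 (H19), -0.15 to 0.26 (Igf2) and -0.68 to 0.049 (Igf2bp3), for diet in LiKM -0.083 to 0.83 (Dlk1), -0.066 to 0.48 (Igf2bp3) and -0.30 to 1.03 (Meg3), for the interaction -0.64 to 0.072 (Mdk) and for the strains on ACR -0.77 to 0.094 (Peg3). The causes were not tested. Mdk and Dlk1 had at most 5 and 1 counts in LiK libraries, so their fold changes rest on few reads.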

Other observations

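The neighbours of the imprinted members within their clusters gave values that belong to no comparison above. Per kilobase, H19 stood 0.332 to 190 times as high as Igf2 in single libraries, with the lowest ratio in LiK normal diet 2 and the highest in LiKM normal diet 1. In LiKM ACR 1, where both were highest, the ratio was 39.7. The reads on the Mir675 hairpin were 2.78% to 6.47% of the counts of H19 in 11 libraries and 0 in LiK normal diet 2, which held 1 count of H19. Meg3 had 1.63 to 2.56 times the level per kilobase of Rian in the 6 LiKM libraries, and 0.302 to 4.71 times in the 6 LiK libraries, where Rian had at most 14 counts. In LiK on ACR, where Meg3 was lowest, Rian had 8, 6 and 7 counts, against 5, 12 and 14 on the normal diet (log2 -0.56, edgeR adjusted p = 0.763). Kcnq1ot1, the long antisense RNA of the chromosome 7 cluster, rose in LiKM on the normal diet (log2 0.95, edgeR adjusted p = 0.00795) and on ACR (log2 0.80, edgeR adjusted p = 0.0318), though its counts are uncertain because it overlaps Kcnq1 on the other strand.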
